A study of Mus musculus with 4 samples.

Results

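The SOX factors described here were 10 genes of the family other than Sox2: Sox1 and Sox3 (group B1), Sox21 (group B2), Sox4, Sox11 and Sox12 (group C), Sox13 (group D), Sox9 (group E), Sox18 (group F) and Sox15 (group G). They were taken by symbol from gene counts that listed 24428 genes, and all 10 had a row and enough reads to be tested. The counts came from poly(A) RNA of mouse embryonic stem cells (129SvEv background), a pluripotent cell type grown here in serum with LIF, the cytokine that holds such cells undifferentiated. In every culture both copies of Smarca4 carried loxP sites and the cells carried CreER, a recombinase that tamoxifen activates. Smarca4 encodes BRG1, an ATPase that powers the BAF (mSWI/SNF) complexes, which move and evict nucleosomes. One group was given 0.8 uM 4-hydroxytamoxifen (n = 2 libraries) and the other ethanol, the solvent (n = 2 libraries), each for 48 h, and cells were collected 72 h after the start. The genotype label is the same for all 4 libraries, so the groups rest on titles and treatment labels. A tamoxifen-treated culture without loxP sites was not analysed here, so deletion, drug and active Cre cannot be told apart. The labels give neither the promoter that drives CreER nor whether libraries came from separate cultures or clones, so each p rests on the spread between libraries alone, and that spread may be technical.

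SOX proteins are relatives of the sex-determining factor SRY and share its HMG box, a DNA-binding domain that sits in the minor groove and bends DNA. They usually act beside a partner factor: in embryonic stem cells SOX2 pairs with OCT4, and other members take over in neural progenitors, cartilage, vessels and germ cells. Members of one letter group have similar proteins and can often stand in for each other. In bulk RNA, fewer cells of a type and less RNA per cell cannot be told apart.

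Smarca4 itself had 968 and 1226 reads in the tamoxifen libraries, against 5042 and 10649 in the ethanol libraries, and was lower in both tamoxifen libraries than in either ethanol library. Reads in genes numbered 13458463 and 17191445 in the tamoxifen libraries and 16130823 and 27086142 in the ethanol libraries. Reads that the counting assigned to no feature took 37.6 and 35.0% of counted reads with tamoxifen and 51.7 and 40.8% with ethanol. Whether these reads lay outside genes cannot be told. The 12 stem cell markers checked, among them Pou5f1, Nanog and Esrrb, were all present. Their summed level was 6047 and 5726 CPM (reads scaled to a common library size) with tamoxifen and 5803 and 5738 CPM with ethanol. The sum joins opposite changes. Tdgf1 had 1158 and 1042 CPM with tamoxifen and 1602 and 1558 CPM with ethanol, while Dppa5a had 1438 and 1460 CPM against 950 and 1054 CPM. Of the 12 markers 2 were called higher and 1 lower (edgeR, adjusted p under 0.05), beside 21.5% and 22.9% of all genes. With the GC correction described below 3 were higher and 2 lower, beside 10.8% and 10.3%.

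With tamoxifen 7 of the 10 SOX genes were higher and none was lower. Sox1, Sox3, Sox21, Sox12, Sox13, Sox15 and Sox9 rose, and Sox4, Sox11 and Sox18 did not pass the test (edgeR quasi-likelihood test, Benjamini-Hochberg adjusted p under 0.05 over 14479 genes). Before adjustment, p in that test was 0.048 for Sox4, 0.054 for Sox11 and 0.056 for Sox18. DESeq2 called 7 of the 10 higher and 0 lower, beside 2422 higher and 2867 lower of 14479 genes. The limma voom fit also called 7 higher and 0 lower, beside 3144 higher and 3285 lower. In the edgeR test 21.5% of all genes were higher with tamoxifen, 22.9% were lower and 44.5% differed either way. The median log2 fold change (tamoxifen over ethanol) was 0.84 over the 10 genes and -0.01 over all genes tested. At least 2-fold increases were called for 4 of the 10, against 5.93% of all genes tested. Both tamoxifen libraries lay above both ethanol libraries for 9 of the 10, where 37% of all genes tested did so, and Sox11 was the 1 gene whose groups overlapped.

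GC content moved with this result. The transcripts of the 10 genes had a median GC content of 58.6%, against 50.1% for all genes tested, and 6 of them fell in the most GC-rich of 10 equal bins of genes. In that bin the median log2 fold change was 0.68 and 58.7% of genes were called higher. Of the 6 SOX genes there, 5 were called. When each library's trend along GC content was removed, 2 of the 10 genes remained called higher and none lower (edgeR quasi-likelihood test with a GC offset), against 10.8% of all genes called higher and 10.3% called lower in that fit. These 2 were Sox9 and Sox15. Sox1 and Sox21, also higher in that fit, had an unadjusted p of 0.034 and 0.046 but did not pass the adjusted threshold. The corrected median over the 10 genes was 0.39, against 0.01 over all genes. Whether the GC trend is technical was not tested. The corrected value is given beside each uncorrected one.

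**Figure D1:**
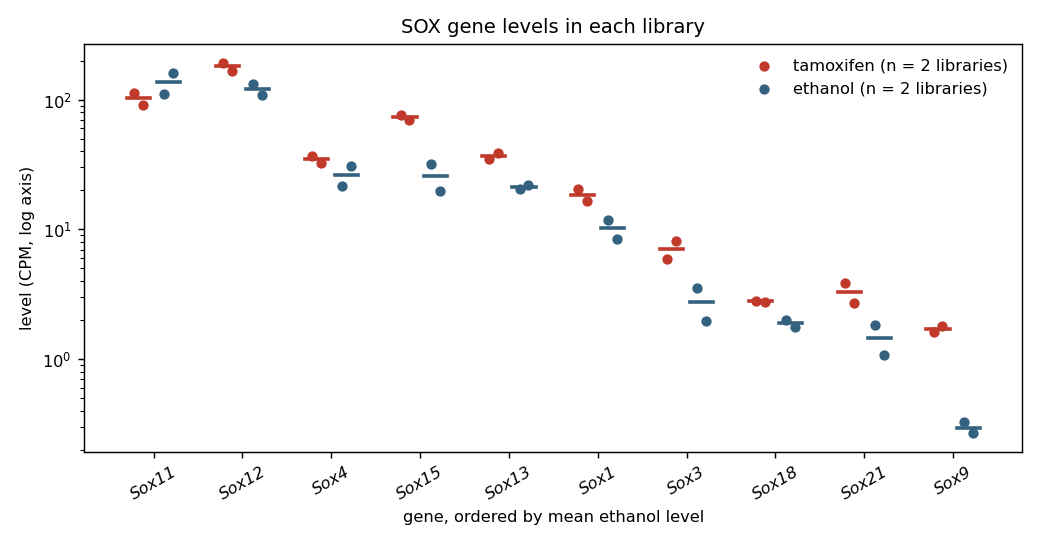
Level of each SOX gene in CPM (log axis) in every library, with points for libraries and short lines for group means, tamoxifen left of ethanol. The tamoxifen points lie above both ethanol points for all genes but Sox11, whose groups overlap.

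**Figure D2:**
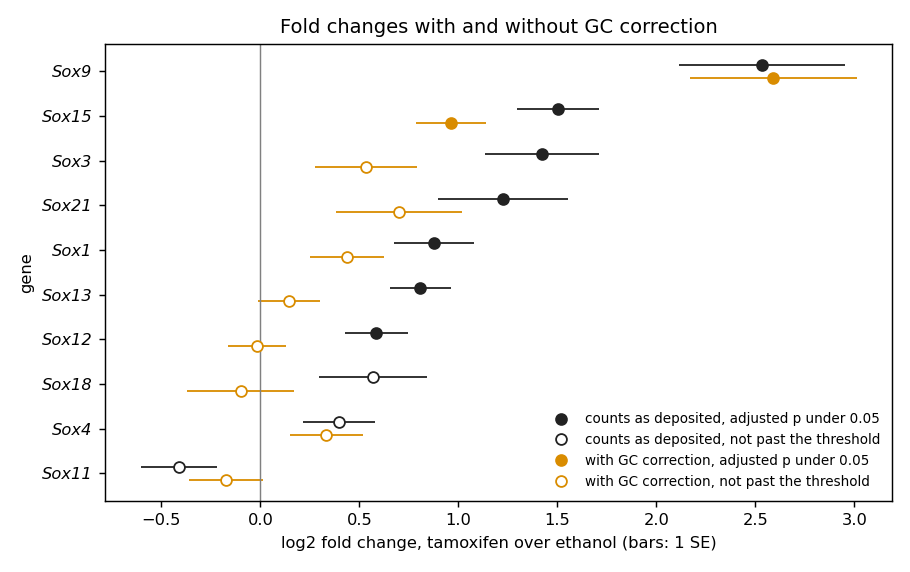
Log2 fold change of tamoxifen over ethanol with 1 SE for the 10 SOX genes, from the counts as deposited (black) and with GC correction (orange); filled points have an adjusted p under 0.05. Filled black points number 7, and filled orange points are those of Sox9 and Sox15.

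Among the promoters, those of Sox15 and Sox12 stand for genes that rose in the uncorrected test and that of Sox11 for the gene with the lowest fold change; Sox12 and Sox11 also belong to the same group of the family. Each line gives the 250 bases before the annotated start (RefSeq, GRCm38.p6; the counts use mm9), read 5′ to 3′ on the strand of the gene. Capitals mark matches on either strand to the POU octamer ATGCAAAT, the SOX motif AACAANG, the CCAAT box, the GC box GGGCGG and the TATA box TATAAA.
Sox15, chr11:69654787-69655036, plus strand: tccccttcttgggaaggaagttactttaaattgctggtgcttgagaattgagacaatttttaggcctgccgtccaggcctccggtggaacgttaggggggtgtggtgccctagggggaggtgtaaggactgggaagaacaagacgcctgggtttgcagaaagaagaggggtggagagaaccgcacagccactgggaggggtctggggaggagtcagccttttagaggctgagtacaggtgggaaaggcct
Sox12, chr2:152398047-152398296, minus strand: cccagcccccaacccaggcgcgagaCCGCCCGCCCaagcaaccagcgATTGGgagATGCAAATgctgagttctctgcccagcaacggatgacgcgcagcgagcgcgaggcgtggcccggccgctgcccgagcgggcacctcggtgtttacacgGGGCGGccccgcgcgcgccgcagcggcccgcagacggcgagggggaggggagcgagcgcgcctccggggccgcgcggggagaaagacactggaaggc
Sox11, chr12:27342719-27342968, minus strand: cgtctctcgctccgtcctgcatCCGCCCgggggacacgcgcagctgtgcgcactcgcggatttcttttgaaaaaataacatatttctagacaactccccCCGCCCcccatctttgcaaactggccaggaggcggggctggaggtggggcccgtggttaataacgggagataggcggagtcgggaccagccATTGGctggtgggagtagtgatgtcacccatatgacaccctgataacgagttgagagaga

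The Sox15 window had 5 CpG dinucleotides and a GC content of 55.6%, near the middle of all promoters (44.4% had fewer CpG), and held none of the 5 motifs. The Sox12 window had 35 CpG and a GC content of 74.4%, and 97.0% of promoters had fewer CpG. It held an octamer, found in 1.6% of 32851 promoters of that length, with its first base 195 bases before the start. It also held a CCAAT box (33.8% of promoters) and 3 GC boxes, a pair of which overlap (32.7% of promoters held at least 1 GC box). The Sox11 window had 17 CpG, 2 GC boxes and 1 CCAAT box and no octamer. Promoters were found for 7 of the 10 genes, the others being Sox3, Sox9 and Sox18. The Sox1 window had 29 CpG with 3 GC boxes, 1 CCAAT box and a SOX motif (12.1% of promoters), and Sox1 had an octamer just downstream of the start, at base 19 counted from 1 at the start, within agcgcgccATGCAAATcaccgccg on chromosome 8. Sox4 had 4 CCAAT boxes, while Sox21 and Sox13 had none of the 5 motifs. The TATA box (12.4% of promoters) was found in none of the 7. The motifs were chosen after the sequences were read, and a match is only a description of the letters.

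Sox15 rose with and without GC correction. It is the single group G member in the mouse and is known there from embryonic stem cells, where it can bind DNA beside OCT4, and from muscle regeneration. It had 1074 and 1248 reads in the tamoxifen libraries, against 491 and 516 in the ethanol libraries, or 76.0 and 69.9 CPM against 32.0 and 19.8 CPM. Both tamoxifen libraries lay above both ethanol libraries, and the ethanol libraries differed more from each other than the tamoxifen ones. Sox15 rose 2.84-fold, a log2 fold change of 1.50 ± 0.21 (SE; edgeR quasi-likelihood test, adjusted p = 0.000386). With GC correction it rose by 0.96 ± 0.18 (adjusted p = 0.00242). The value ranged from 1.20 without ethanol replicate 2 to 1.88 without ethanol replicate 1, and with correction from 0.72 to 1.25 without the same libraries, and it passed the threshold in each.

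Sox15 overlaps Mpdu1, a glycosylation gene on the opposite strand, and the strand setting of the counting is not given in the sources used here, so reads of the shared stretch cannot be told apart or may have been dropped as ambiguous. Mpdu1 had 462 and 501 reads with tamoxifen and 322 and 514 with ethanol, a log2 fold change of 0.58 ± 0.16 (edgeR, adjusted p = 0.0111; 0.20 ± 0.15 and not called with GC correction). For every 100 reads of Mpdu1, Sox15 had 232 and 249 with tamoxifen and 152 and 100.4 with ethanol. The ratio was thus higher in both tamoxifen libraries, with no scaling between libraries involved. The GC trend is not removed from it, and GC content is 58.9% for Sox15 and 55.9% for Mpdu1.

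Sox9 had the largest fold change. It is the group E factor that drives cartilage formation and testis determination and marks neural crest and many epithelial progenitors. Sox9 had 23 and 32 reads with tamoxifen, against 5 and 7 with ethanol, or 1.63 and 1.79 CPM against 0.326 and 0.269 CPM. The groups lay apart, at a level that was the lowest of the 10 genes in both groups. With so few reads, the small spread between 2 libraries is itself uncertain. Sox9 rose 5.79-fold, by 2.53 ± 0.42 log2 (SE, edgeR quasi-likelihood test, adjusted p = 0.00073). The interval was 1.69 to 3.37 (2 SE either way). DESeq2 gave a wider SE, at 2.54 ± 0.73 (adjusted p = 0.00253). The Sox9 transcript has a GC content of 49.3%, in a bin of genes whose median log2 fold change was -0.06. The corrected value was 2.59 ± 0.42 (edgeR, adjusted p = 0.00118). Sox9 kept its call in all 19 alternatives, between 2.38 and 2.69.

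Markers of fibroblasts, a possible feeder cell, were higher alongside: 18 of 24 tested rose and none fell, beside 21.5% of all genes higher. With GC correction the same numbers held for the markers, beside 10.8% of all genes higher. Their summed level over all 25 markers was 3554 and 3756 CPM with tamoxifen and 2519 and 2186 CPM with ethanol, and no marker was at 0. Col6a3, Col6a1 and Fbln2, matrix protein genes, had log2 fold changes of 1.82 ± 0.17, 1.88 ± 0.20 and 1.49 ± 0.17 (edgeR, adjusted p = 4.6e-05, 9.1e-05 and 0.00012). Their part in the rise of Sox9 and the other SOX genes was not tested. Of 13 cartilage genes tested, several of which are direct SOX9 targets, 3 were higher and 2 lower. Their median log2 fold change was 0.28, and these counts were near the 21.5% higher and 22.9% lower among all genes. With GC correction 1 was higher and 1 lower (median -0.28), beside 10.8% higher and 10.3% lower among all genes. Matn4, a matrix matrilin gene, rose by 1.54 ± 0.45 from few reads (14 and 23 with tamoxifen, 8 and 8 with ethanol), while Trps1, a transcriptional repressor of the growth plate, and Matn3, another matrilin gene, fell by 1.24 and 0.62 log2 (edgeR, adjusted p = 0.016, 0.000191 and 0.0115). DESeq2 called none of the cartilage genes higher and 2 lower. The Matn4 call ended without ethanol replicate 2 (1.14) and without tamoxifen replicate 2 (1.32), and the Matn3 call with GC correction (-0.28) and without tamoxifen replicate 2 (-0.55).

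The group B genes rose together in the uncorrected test. SOX1 and SOX3 are close relatives of SOX2 that maintain neural progenitors, and SOX21, of group B2, mostly represses genes that the B1 factors activate and favours neuronal differentiation. Sox3 had 5.94 and 8.13 CPM in the tamoxifen libraries, against 3.52 and 1.96 CPM in the ethanol libraries, from 84 and 145 reads against 54 and 51. It rose 2.68-fold (1.42 ± 0.29 log2; edgeR quasi-likelihood test, adjusted p = 0.00246). With the highest GC content of the 10 transcripts, 66.4%, it was at 0.54 ± 0.26 after correction and no longer called (adjusted p = 0.157).

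Sox1 had 20.4 and 16.6 CPM with tamoxifen and 11.9 and 8.41 CPM with ethanol, with 289 and 296 reads against 183 and 219. It rose 1.84-fold (0.88 ± 0.20 log2; adjusted p = 0.0044 by edgeR) and was at 0.44 ± 0.19 with correction (adjusted p = 0.111). Sox21 had 3.89 and 2.69 CPM with tamoxifen and 1.82 and 1.08 CPM with ethanol, from 55 and 48 reads against 28 and 28. For Sox1 and Sox21 alike the lower tamoxifen library lay above the higher ethanol library. Sox21 rose 2.34-fold (1.22 ± 0.33 log2; adjusted p = 0.0102 by edgeR). It was at 0.70 ± 0.32 with correction (adjusted p = 0.135), and its uncorrected call ended without ethanol replicate 2 (0.84) and without tamoxifen replicate 1 (0.94). After correction the unadjusted p was 0.034 for Sox1, 0.0572 for Sox3 and 0.046 for Sox21, and the corrected values of all 3 were positive but did not pass the adjusted threshold. Without ethanol replicate 1 the corrected values were 0.62 for Sox1, 0.87 for Sox3 and 0.99 for Sox21. Without ethanol replicate 2 they were 0.26, 0.23 and 0.39. Without tamoxifen replicate 1 Sox1 was at 0.27 and Sox21 at 0.41, and without tamoxifen replicate 2 Sox3 was at 0.31, each with correction. Each of these fits leaves 1 library in a group and takes its spread from the other group alone.

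Sox2, the B1 relative, had 430 and 386 CPM with tamoxifen and 431 and 454 CPM with ethanol (-0.12 ± 0.15 log2; edgeR, adjusted p = 0.553; 0.0095 with total counts). Per 100 Sox2 reads, Sox1 had 4.76 and 4.30 reads with tamoxifen and 2.77 and 1.85 with ethanol. Sox3 had 1.38 and 2.11 reads per 100 of Sox2 with tamoxifen and 0.817 and 0.432 with ethanol. Both ratios were higher in each tamoxifen library than in each ethanol library. They carry the GC trend, since Sox2 has a lower GC content (50.5%) than Sox1 (56.9%) and Sox3 (66.4%). Sox1 reads outnumbered Sox3 reads in every library, at 344 and 204 per 100 with tamoxifen and 339 and 429 with ethanol, with overlapping groups.

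Of the group C genes, which act in neuronal maturation and in the survival of many progenitors, 1 of 3 was called higher, beside 21.5% of all genes. Sox12 had 193 and 167 CPM with tamoxifen and 133 and 108 CPM with ethanol, from 2730 and 2985 reads against 2035 and 2803. It rose 1.50-fold (0.59 ± 0.16 log2; edgeR quasi-likelihood test, adjusted p = 0.0109). With a GC content of 59.9%, it was at -0.018 ± 0.15 with correction (adjusted p = 0.949), and without correction its call ended without tamoxifen replicate 1 (0.48). Sox4 had 36.9 and 32.6 CPM with tamoxifen and 21.6 and 30.7 CPM with ethanol, with 521 and 581 reads against 332 and 800. The groups did not overlap, but one ethanol library was close to the tamoxifen ones. Its log2 fold change was 0.40 ± 0.18 (adjusted p = 0.0915 by edgeR; 0.33 ± 0.18 with correction), with an interval of 0.03 to 0.76 (2 SE either way, uncorrected). It was called without ethanol replicate 2 (0.69; 0.65 with correction) and with total counts (0.52), whereas without ethanol replicate 1 it was at 0.18 and, with correction, 0.078, and was not called.

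Sox11, long known from immature neurons, had 113 and 91.3 CPM with tamoxifen and 110 and 162 CPM with ethanol, from 1600 and 1629 reads against 1692 and 4206. The tamoxifen libraries straddled the lower ethanol library. Its log2 fold change was -0.41 ± 0.19 (edgeR, unadjusted p = 0.054, adjusted p = 0.100), and -0.17 ± 0.19 with GC correction. The uncorrected interval of -0.80 to -0.03 (2 SE either way) is narrower than that test gives at a p of 0.05. The fold change of Sox11 depended on the ethanol libraries. Without ethanol replicate 1 it was called lower (-0.66; -0.42 with correction), whereas without ethanol replicate 2 it was at -0.10 and, with correction, 0.12. It was also called lower with no filter on low counts (-0.43). Within a library, Sox4 had 32.6 and 35.7 reads per 100 of Sox11 with tamoxifen and 19.6 and 19.0 with ethanol. Sox12 had 171 and 183 per 100 of Sox11 with tamoxifen and 120.3 and 66.6 with ethanol. Relative to Sox11, Sox4 and Sox12 were thus higher in both tamoxifen libraries than in either ethanol library. Both ratios share Sox11, so they are not independent, and the balance of Sox12 and Sox4 was not examined. The ratios carry the GC trend, since Sox11 has a GC content of 46.5%, below that of Sox4 (51.1%) and Sox12 (59.9%). No p is given for such ratios, since with 2 libraries a group the smallest p of a two-sided exact permutation test is 0.333.

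Sox13, a group D factor that lacks an activation domain and is best known from gamma-delta T cells, had 35.0 and 38.9 CPM with tamoxifen and 20.3 and 21.9 CPM with ethanol, from 495 and 695 reads against 312 and 570. Its libraries agreed closely within each group and the groups lay apart. It rose 1.75-fold (0.81 ± 0.15 log2; edgeR quasi-likelihood test, adjusted p = 0.00156), but was at 0.15 ± 0.16 and not called with GC correction (adjusted p = 0.541), and its corrected value lay between 0.02 and 0.30 without any 1 library. Its transcript has a GC content of 60.8%, in the bin of genes where the median log2 fold change was 0.68.

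Sox18, a group F factor of endothelial and lymphatic development, had 2.83 and 2.75 CPM with tamoxifen and 2.02 and 1.77 CPM with ethanol, from 40 and 49 reads against 31 and 46. Although the groups did not overlap, its log2 fold change of 0.57 ± 0.27 did not pass the test (edgeR, adjusted p = 0.104), with an interval of 0.03 to 1.11 (2 SE either way), and it was at -0.10 ± 0.27 with correction. Of 15 endothelial genes tested, 3 were higher and 3 lower (median log2 fold change 0.18), near the 21.5% higher and 22.9% lower among all genes. With GC correction 2 were higher and 3 lower, beside 10.8% higher and 10.3% lower among all genes. Pecam1, which also marks naive stem cells, fell by 1.60 ± 0.15 log2, Tek, an angiopoietin receptor, fell by 0.95 ± 0.23, and Eng, a TGF-beta co-receptor, rose by 1.11 ± 0.16 (edgeR, adjusted p = 4.6e-05, 0.00586 and 0.000289). The summed level of the 20 endothelial genes was 195 and 199 CPM with tamoxifen and 211 and 188 CPM with ethanol, so these groups overlapped.

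**Figure D3:**
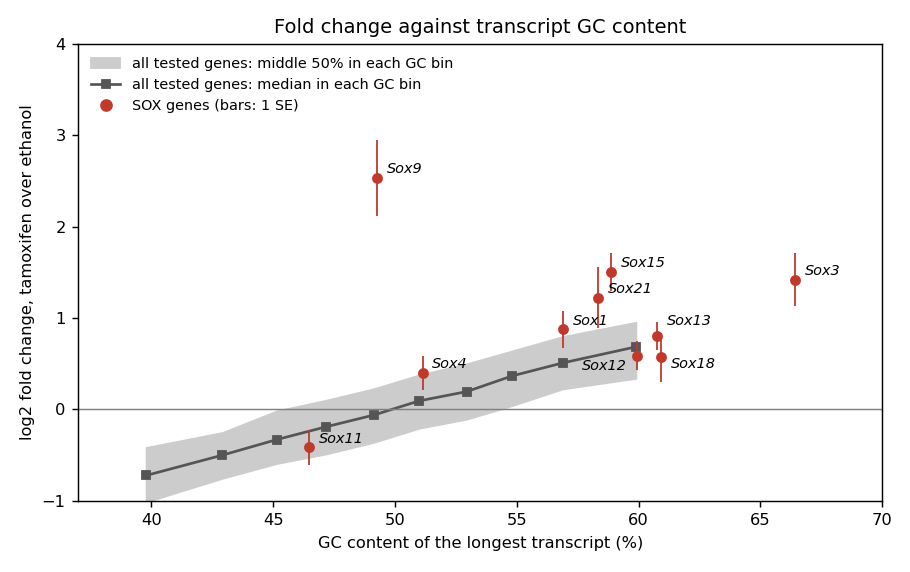
Log2 fold change against GC content of the longest transcript for the 10 SOX genes (red, 1 SE), over the median (squares) and middle 50% (grey band) of all genes tested in 10 bins of GC content. Sox9 lies far above the band at 49.3% GC, Sox15, Sox3, Sox21, Sox1 and (narrowly) Sox4 also lie above the band of their bins, and Sox12 and Sox18 lie below the median of their bin, 0.68.

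Set against the median of its own bin of GC content, Sox9 was 2.59 higher on the log2 scale, Sox15 0.82, Sox3 0.74, Sox21 0.54, Sox1 0.37, Sox4 0.30 and Sox13 0.12 higher, while Sox12 was 0.10, Sox18 0.12 and Sox11 0.22 lower. These differences are descriptions and carry no test. The genes thus spread from well above to just below the medians of their bins. The most GC-rich bin is wide, from 58.1 to 78.9% with a median of 59.9%, so Sox3, at 66.4%, is less closely matched. The annotated transcript of 5 of the 10 (Sox1, Sox3, Sox21, Sox4 and Sox11) is a single exon, so spliced and unspliced reads cannot be told apart there. Of these 5, 3 were called higher uncorrected and none with correction, where 21.5 and 10.8% of all genes were. Sox9 and Sox15, called with correction, have more than 1 exon, as do Sox12, Sox13 and Sox18, not called with it. A link between exon number and the calls was not tested. An overlapping noncoding gene is annotated at Sox1 on the same strand and at Sox4 and Sox21 on the opposite strand, and those genes were not analysed here.

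Levels can be ranked between genes only per length of transcript, here as CPM per kb of the longest annotated transcript. Sox15 stood first in both groups, at 88.3 and 81.2 with tamoxifen and 37.2 and 23.0 with ethanol. Sox12 followed at 40.5 ± 4.11 with tamoxifen and 27.0 ± 3.96 with ethanol (SD, n = 2). With ethanol the libraries of Sox15 and Sox12 overlapped, whereas with tamoxifen Sox15 lay above Sox12 in both. The means of Sox11 were next (12.3 with tamoxifen and 16.3 with ethanol), and Sox13 had 9.48 and 10.5 in the tamoxifen libraries and 5.50 and 5.93 in the ethanol libraries. Then came the means of Sox4 (7.24 with tamoxifen and 5.46 with ethanol), Sox1 (3.83 and 2.10), Sox3 (3.41 and 1.33), Sox18 (1.72 and 1.17), Sox21 (0.866 and 0.382) and Sox9 (0.414 and 0.0719). The order of the means was the same in both groups. Neighbours whose libraries overlapped were Sox1 and Sox3 with tamoxifen, and Sox13 and Sox4, and Sox3 and Sox18, with ethanol.

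Summed per kb with Sox2, the 11 genes had a different make-up in the 2 groups. Sox2 held 54.7 and 54.4% of the sum in the tamoxifen libraries and 68.5 and 72.6% in the ethanol libraries. Sox15 held 23.1 and 23.5% with tamoxifen and 12.2 and 7.58% with ethanol, and Sox12 11.4 and 10.9% with tamoxifen and 9.74 and 7.96% with ethanol. Sox11 held 3.57 and 3.18% with tamoxifen and 4.34 and 6.40% with ethanol. The Sox2 share was thus lower, and the Sox15 and Sox12 shares higher, in both tamoxifen libraries than in either ethanol library. These shares need no scaling between libraries but carry the GC trend, since Sox2 has a lower GC content (50.5%) than Sox15 (58.9%).

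**Figure D4:**
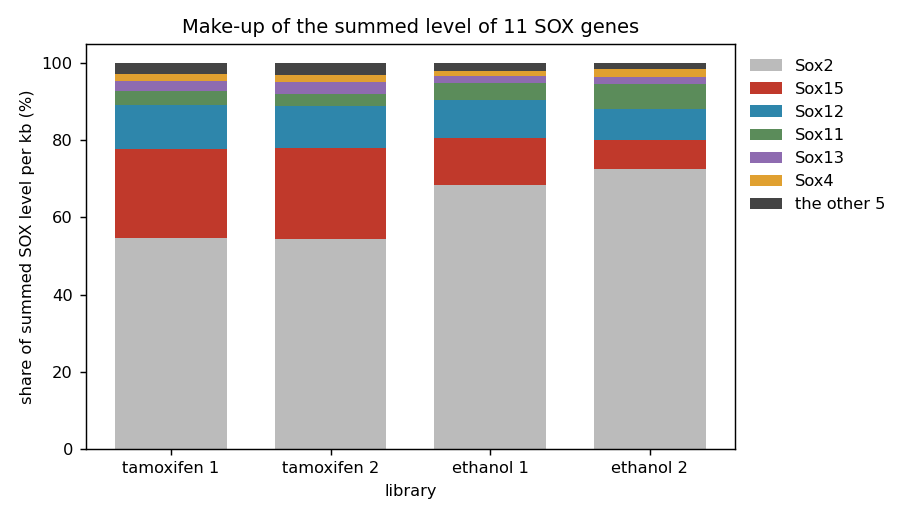
Share of the summed level per kb of 11 SOX genes, Sox2 and the 10 described, in each library, in percent; the other 5 are Sox1, Sox3, Sox18, Sox21 and Sox9. Sox2 holds 54.4 to 54.7% with tamoxifen and 68.5 to 72.6% with ethanol, and the Sox15 block is widest with tamoxifen.

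Of the 10 other SOX genes listed, Sox2 among them, 7 were tested, 1 was higher with tamoxifen and none was lower, where 44.5% of all genes differed either way. Their median log2 fold change of -0.12 is the value of Sox2. The called gene, Sox10, the group E factor of neural crest and glia, had 78 and 70 reads with tamoxifen and 34 and 39 with ethanol (1.37 ± 0.29; edgeR, adjusted p = 0.00264). It was at 0.67 and not called with GC correction. Sox7, a group F gene, missed the threshold at 0.45 ± 0.17 (adjusted p = 0.0503 by edgeR) and passed it in several alternatives, and Sox8 had -0.90 ± 0.45 (adjusted p = 0.122 by edgeR). Sox5 and Sox14 had at most 10 reads in any library and Sry had none, which left them out of the test.

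Of 21 genes tested that mark neural cells, in which the group B and C factors work, 5 were higher and 3 lower with tamoxifen, with a median log2 fold change of 0.13. These counts stand beside 21.5% higher and 22.9% lower among all genes. With GC correction 4 were higher and 5 lower, beside 10.8% higher and 10.3% lower among all genes. Zic2, a transcription factor of the neural plate, rose by 1.38 ± 0.21 (0.78 with correction), and Tubb3, a neuronal tubulin gene that SOX4 and SOX11 can activate, by 1.0 ± 0.15 (0.50 with correction; edgeR, adjusted p = 0.00054 and 0.000429). Stmn2, a microtubule regulator of growing axons, fell by 1.08 ± 0.16 (adjusted p = 0.000329 by edgeR; -0.52 with correction). Without ethanol replicate 1 the uncorrected values were 1.67 for Zic2, 1.08 for Tubb3 and -1.02 for Stmn2. Without ethanol replicate 2 they were 1.14, 0.93 and -1.13.

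**Figure D5:**
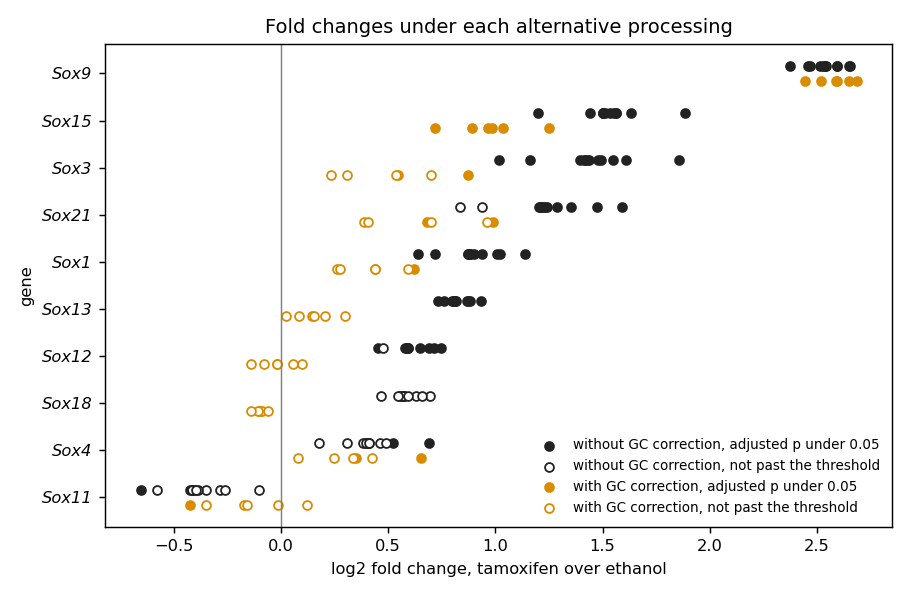
Log2 fold change of tamoxifen over ethanol for each SOX gene under every alternative tried, without GC correction (black) and with it (orange); filled points have an adjusted p under 0.05. Sox9 and Sox15 stay filled throughout, the points of Sox12 and Sox18 with correction lie around 0, and those of Sox11 lie between -0.66 and 0.12.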

How the data were processed

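The material was 4 poly(A) RNA-seq libraries of mouse stem cells, 2 given 4-hydroxytamoxifen and 2 given ethanol. The values are raw counts of reads per gene symbol, used as the authors deposited them. The submitters' processing notes name CASAVA 1.8.2, Bowtie 1.1.1, HTSeq, DESeq2 and build mm9; what each did, the annotation and the strand setting were not given in the sources used here. The closing summary lines of each file were left out of library sizes and tests. Tamoxifen was compared with ethanol by the quasi-likelihood test of edgeR 4.0.16 (R 4.3.3; robust; TMM scaling; low counts removed by filterByExpr; treatment as single term), with Benjamini-Hochberg adjustment over 14479 genes. An SE is |log2 fold change| divided by the root of F, and CPM are TMM-scaled. Libraries of 1 group differed beyond sampling noise (chi-square over degrees of freedom 10.5 for tamoxifen, 37.0 for ethanol). GC correction used each library's loess trend (span 0.5, degree 1) of log2 CPM on transcript GC content as an offset. Transcript GC content and lengths were taken from GENCODE M21 (GRCm38), where 23531 symbols matched directly, 523 through a synonym and 374 did not. Other alternatives were RLE, upper-quartile and total-count scaling, other filters, DESeq2 1.42.0, limma 3.58.1 voom, a replicate block, a threshold of 0.01 and leaving out each library; GC correction with a library left out was added after seeing the data. A fit with a library left out has 1 library in a group and takes its spread from the other group alone. Its calls are therefore not comparable with those from all 4 libraries. Only the uncorrected edgeR fit was tried on simulated data, with few changed genes and no GC trend. The GC correction was not tried in that way. The SOX genes and lists were chosen with earlier results of these data known. Named were all 10 SOX genes and Smarca4, with the stem cell markers given as levels and numbers called. From each other list the 3 genes ranked first by adjusted p were named. Sox2 and Mpdu1 were added after values were seen. Promoter sequences are from RefSeq.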

Additional observations from a re-analysis of the deposited data

How the results depend on the processing

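Sox9 and Sox15 rose in all 19 alternatives, at 2.38 to 2.69 and 0.72 to 1.88 log2. Among the 10 SOX genes, 7 were higher with RLE, upper-quartile factors, DESeq2, limma voom, no filter or the stricter filter, 8 with total counts, 5 at a threshold of 0.01 and 2 with GC correction. Of 14479 genes tested, 3131 were called higher with RLE, 3530 with upper-quartile factors, 4082 with total counts, 2422 with DESeq2 and 3144 with limma voom. At a threshold of 0.01 the number was 1765, and with GC correction 1560. The stricter filter gave 3117 higher of 13698 genes. With no filter 3192 of 19818 genes were higher and 3627 lower, and Sox11 was the 1 SOX gene called lower. Fits without 1 library take their spread from 1 group alone, so their calls are not counted here. The cause of these changes was not tested.

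With GC correction, Sox12 turned to -0.018 (-0.021 with the replicate block as well, -0.081 without ethanol replicate 2, -0.14 without tamoxifen replicate 1). Sox18 turned to -0.10 with it (-0.10 with the block, -0.089 and -0.11 without ethanol replicates 1 and 2, -0.14 and -0.061 without tamoxifen replicates 1 and 2). Sox11 turned to 0.12 with it without ethanol replicate 2, and Sox2 to 0.0095 with total counts.

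Over all genes 3053 were called with GC correction, 3806 at 0.01 and 3888 to 7326 without 1 library, against 6441. Other SOX genes numbered 2 called in place of 1 with RLE, upper-quartile factors, total counts, no filter, the stricter filter or the replicate block. They numbered 0 with GC correction and 3 with block and GC correction. Cartilage genes numbered 2 in place of 5 with DESeq2, GC correction, or block and GC correction, and 1 at 0.01. Neural genes numbered 15 in place of 8 with block and GC correction, 5 at 0.01 and 7 to 13 without 1 library. Endothelial and fibroblast counts stayed within 1.5 times.

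Same-numbered libraries deviated together (correlation 0.234 across 14479 genes), but with 2 pairs and no label that ties them they share only a number. With the replicate block 8 SOX genes were higher, Sox4 the added one, and 8087 genes were called in all, 3919 of them higher. With block and GC correction 6 SOX genes were higher. In that fit 5248 of 14479 genes were called, 2694 of them higher, against 3053 called with GC correction alone. The 6 were Sox9 and Sox15 with Sox1 (0.44), Sox3 (0.55), Sox21 (0.68) and Sox4 (0.35; edgeR, adjusted p = 0.023, 0.040, 0.048 and 0.036 for the last 4). Depth was lowest for Sox9, Sox18 and Sox21, which had at most 55 reads in a library; the SE was largest for Sox9 (0.42), Sox21 (0.33) and Sox3 (0.29).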
